A study of Mus musculus with 33 samples.

Results

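Taste receptor genes are the members described here. They are the protein-coding genes of GRCm38 on chromosomes 1 to 19 whose symbols begin with Tas1r or Tas2r and a number, and 38 of 20665 protein-coding genes met that rule, 35 of the Tas2r family and 3 of the Tas1r family. The rule used names and no measured value. CUT&RUN, in which an antibody directs a nuclease to cut out the DNA it marks, was done for H3K9me2, a histone mark of repressed chromatin, and for Lamin B1, a protein of the nuclear lamina, with IgG as control. The sources were the right forebrain lobe and the whole heart of wild-type C57BL/6 embryos at E11.5, pooled by tissue with separate pooled litters as replicates, and mES cells, a single C57BL/6 embryonic stem cell line (SCRC-1002) moved from feeder cells to a medium with LIF, PD0325901 and CHIR99021, with separate culture vessels as replicates. H3K9me2 and Lamin B1 had 3 libraries each per source, and IgG had 6 in the forebrain, 6 in the heart and 3 in mES cells.

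The measurements are 9 lists of domains, 3 per source, deposited by the authors under the names LAD, KOD and open. LADs are lamina-associated domains, long stretches of chromatin at the nuclear edge. The sources used here do not say what the letters KOD stand for. A list gives only where each domain starts and ends, in bins of 10 kb, and the labels name the same list for every H3K9me2 and Lamin B1 library of its source, so no value below has a replicate error, the depth behind it is unknown, and differences between sources are given as counts without a test. Signal tracks were not analysed here. A gene was given the state of the list with the largest share of its body. A bulk map cannot tell a change in every cell from a change in the mix of cells. RNA was not measured, so the tissue labels could not be checked by expression. Of 5 marker genes per source, 2 forebrain markers were open in the forebrain, 4 in the heart and 3 in mES cells. Of the heart markers 0, 3 and 0 were open in those sources, and of the mES markers 3, 3 and 4. The open list thus held fewer forebrain markers in forebrain than in heart.

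Taste is sensed by receptors on the cells of taste buds. The Tas2r genes encode bitter receptors, each made from a single coding exon, and most of them stand in tandem arrays. The Tas1r genes encode the subunits of the sweet and umami receptors, which work in pairs: Tas1r2 with Tas1r3 for sweet, and Tas1r1 with Tas1r3 for umami. Bitter receptors have also been described in airway and gut cells. Genes of this kind, used by few cell types and gathered in clusters, are often found at the nuclear lamina in other cells. Neither source tissue nor the stem cells contain taste buds.

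Members were grouped into loci, where neighbours on the same chromosome stand less than 1 Mb apart. This gave 9 loci, 3 clusters and 6 single genes. All 3 clusters lie on chromosome 6, which holds 33 of the 35 Tas2r genes. The largest runs from Tas2r130 to Tas2r140 (chromosome 6, 131629892 to 133055793, mm10) and has 24 genes. The next has 5, Tas2r139 to Tas2r126 (42140936 to 42435461), and the third has 3, Tas2r137 to Tas2r138 (40491238 to 40613310). Tas2r118 on chromosome 6, Tas2r134 on chromosome 2 and Tas2r119 on chromosome 15 stand alone, as do Tas1r2, Tas1r1 and Tas1r3 on chromosome 4.

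The 300 bases at the annotated start of a gene, 250 before it and 50 after it, were taken from RefSeq (GRCm38.p6) and were found for 34 of the 38 members. Tas2r116, Tas2r117, Tas2r121 and Tas2r136 had no entry. The 6 windows below are shown because their genes have the states the results turn on: KOD in every source (Tas1r2), open in both tissues but KOD in mES cells (Tas1r3), LAD in both tissues but KOD in mES cells (Tas2r119), open in forebrain alone of the 3 maps (Tas2r108), open in heart alone of the 3 maps (Tas2r143), and LAD in every source (Tas2r110). Capitals mark CpG dinucleotides, searched as CG, which reads the same on both strands.
Tas1r2 (chr4:139653288-139653587, plus strand): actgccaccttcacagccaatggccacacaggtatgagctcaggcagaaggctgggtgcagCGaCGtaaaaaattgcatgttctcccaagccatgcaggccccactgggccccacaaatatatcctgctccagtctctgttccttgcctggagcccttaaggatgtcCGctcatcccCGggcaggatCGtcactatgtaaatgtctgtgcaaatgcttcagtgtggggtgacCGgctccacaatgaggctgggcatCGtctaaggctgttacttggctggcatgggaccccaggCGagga
Tas1r3 (chr4:155863304-155863603, minus strand): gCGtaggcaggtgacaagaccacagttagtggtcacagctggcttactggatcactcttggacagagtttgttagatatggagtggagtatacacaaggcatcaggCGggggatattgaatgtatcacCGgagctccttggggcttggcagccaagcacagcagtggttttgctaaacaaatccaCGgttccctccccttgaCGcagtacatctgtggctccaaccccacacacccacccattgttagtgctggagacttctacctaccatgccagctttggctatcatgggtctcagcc
Tas2r119 (chr15:32177039-32177338, plus strand): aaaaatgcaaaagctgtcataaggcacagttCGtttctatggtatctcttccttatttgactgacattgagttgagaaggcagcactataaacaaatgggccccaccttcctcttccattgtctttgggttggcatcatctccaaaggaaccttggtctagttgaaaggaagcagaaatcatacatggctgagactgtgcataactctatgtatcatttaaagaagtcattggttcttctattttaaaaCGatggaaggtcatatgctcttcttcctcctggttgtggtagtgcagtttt
Tas2r108 (chr6:40493342-40493641, plus strand): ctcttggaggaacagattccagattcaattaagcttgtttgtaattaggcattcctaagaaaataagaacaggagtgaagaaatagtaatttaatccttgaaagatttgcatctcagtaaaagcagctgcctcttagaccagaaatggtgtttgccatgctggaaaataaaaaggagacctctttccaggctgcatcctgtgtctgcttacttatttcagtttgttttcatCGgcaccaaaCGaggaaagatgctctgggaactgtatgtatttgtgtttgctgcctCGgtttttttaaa
Tas2r143 (chr6:42399988-42400287, plus strand): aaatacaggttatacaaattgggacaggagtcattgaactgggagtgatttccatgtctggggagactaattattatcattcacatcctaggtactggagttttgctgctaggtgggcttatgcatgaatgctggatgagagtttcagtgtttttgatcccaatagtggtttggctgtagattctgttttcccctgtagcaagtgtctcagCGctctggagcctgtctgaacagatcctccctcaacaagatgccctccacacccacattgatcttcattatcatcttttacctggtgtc
Tas2r110 (chr6:132867758-132868057, plus strand): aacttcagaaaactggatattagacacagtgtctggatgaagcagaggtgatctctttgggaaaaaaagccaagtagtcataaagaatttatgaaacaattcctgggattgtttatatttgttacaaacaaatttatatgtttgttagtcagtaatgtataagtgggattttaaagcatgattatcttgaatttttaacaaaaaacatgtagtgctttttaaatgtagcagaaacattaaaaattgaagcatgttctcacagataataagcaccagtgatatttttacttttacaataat

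The windows of the 2 families differ in base content, though their annotated starts are of unlike kinds, as given below. Tas2r windows held 0 to 4 CpG with a median of 1, and 8 of 31 held none, while Tas1r windows held 5 to 8. Over the 16457 protein-coding genes with a window the median was 14 CpG and 95.0% held at least 1. G and C made up 28.7% to 49.0% of the bases in Tas2r windows (median 37.0%), and 52.7%, 56.3% and 58.0% in the Tas1r windows of Tas1r3, Tas1r2 and Tas1r1. The median over all genes was 56.7%. Genes that were LAD in all 3 sources, 1823 with a window and Tas2r genes among them, had a median of 1 CpG and 39.3% G and C. The Tas2r medians lay near these, though a smaller share of that set starts at an ATG, as given below. The median share of G and C was 34.1% in windows of the largest cluster and 42.7% in those of the other Tas2r genes. In 29 of 31 Tas2r windows and 0 of 3 Tas1r windows the annotated start was an ATG. It was for 9.01% of all genes and 40.4% of genes LAD in all 3 sources. A length that is a multiple of 3 was found in 34 of 35 Tas2r genes. Nearly all their RefSeq models are thus coding lengths (882 to 1044 bp), with starts at the first codon rather than the start of transcription. Tas2r windows thus sit at another position than those of Tas1r and most other genes. The contrasts in CpG and in G and C cannot be read as contrasts of promoters. No pair of member windows reached 80% identity, and the closest, Tas2r123 and Tas2r110, had 66.3%.

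**Figure D1:**
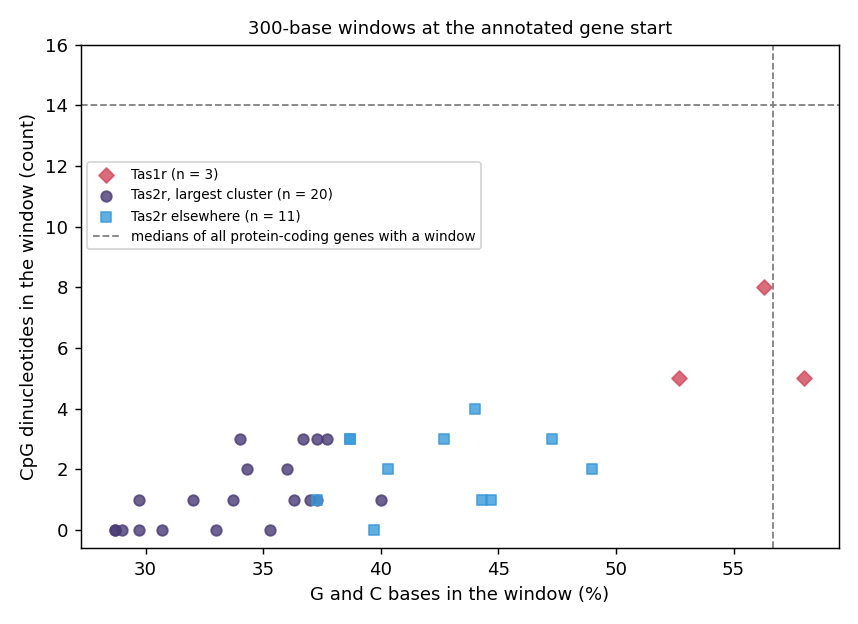
Share of G and C bases (x axis, %) against the number of CpG dinucleotides (y axis, count) in the 300-base window of each of 34 members. Diamonds are Tas1r genes, circles Tas2r genes of the largest cluster and squares the other Tas2r genes, and the dashed lines are the medians of all protein-coding genes with a window, 56.7% and 14. All Tas2r points hold 4 CpG or fewer, and the Tas1r points hold 5 to 8.

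Bitter receptor genes were LAD in most cases and in every source. Of 35 Tas2r genes 30 were LAD in the forebrain, 30 in the heart and 29 in mES cells. These counts stand beside 16.5%, 14.2% and 16.5% of all protein-coding genes. In all 3 sources 29 were LAD, beside 10.8% of all genes. No Tas2r gene was KOD in forebrain or heart and 1 was in mES cells, beside 18.9%, 17.8% and 12.9% of all genes. There were 2 open in the forebrain, 2 in the heart and 0 in mES cells, beside 57.4%, 58.0% and 63.6% of all genes. In forebrain, heart and mES cells 3, 3 and 5 were in no list, beside 7.21%, 9.99% and 7.05% of all genes. In total 5 of 35 were in no list of at least 1 source, beside 15.7% of all genes. These are not 35 separate observations, because the 24 genes of the largest cluster share 1 LAD in forebrain and in mES cells. Without that cluster 6 of 11 were LAD in the forebrain, 6 in the heart and 5 in mES cells. The LAD genes of the family stood in 7 separate LADs in the forebrain, 8 in the heart and 6 in mES cells.

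Sweet and umami receptor genes were LAD in no source. Of the 3 Tas1r genes 2 were open in the forebrain, 2 in the heart and 1 in mES cells, beside 57.4%, 58.0% and 63.6% of all genes, and the others were KOD. The nearest LAD of forebrain, heart and mES cells lay 4960, 2650 and 3760 kb from Tas1r2, 4240, 572 and 7200 kb from Tas1r1, and 8070, 2030 and 11000 kb from Tas1r3. With 3 genes on 1 chromosome, the contrast with the Tas2r family is a description.

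**Figure D2:**
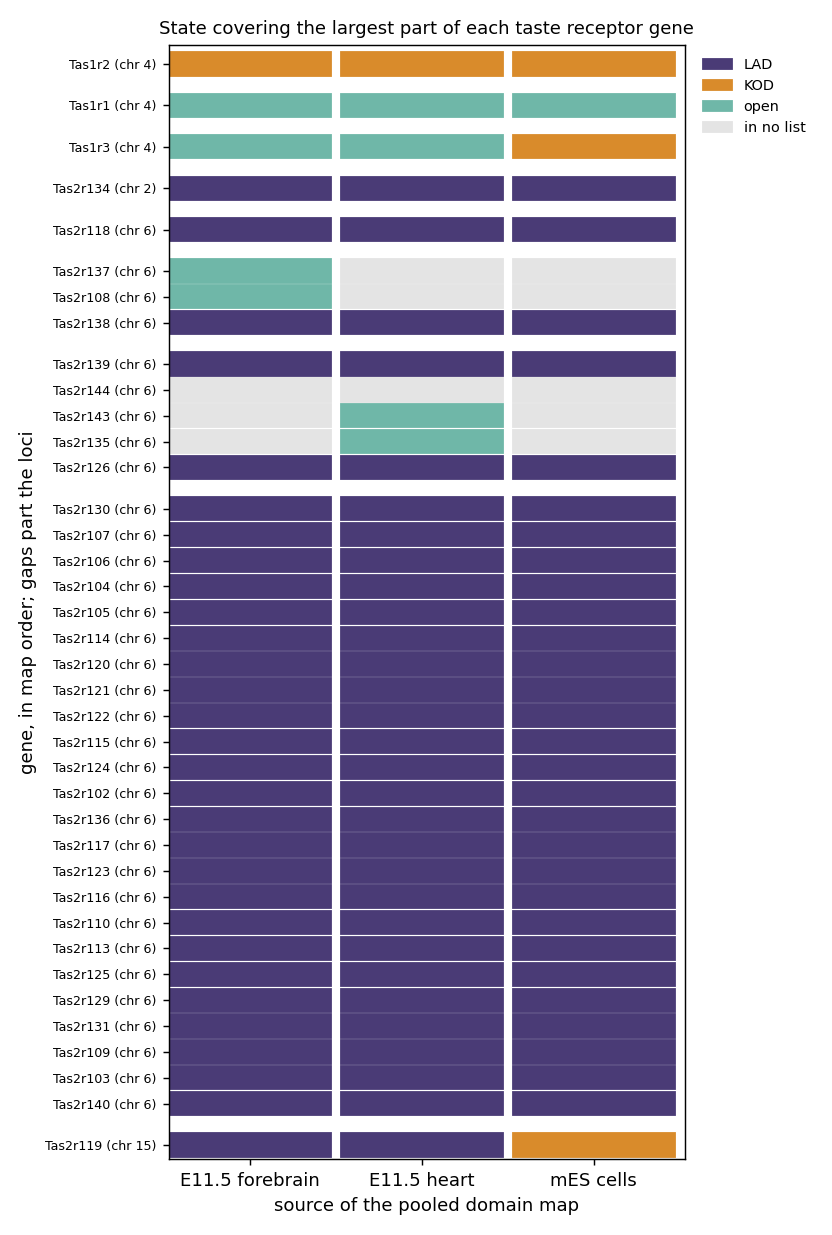
State of each of the 38 members, with 1 row per gene in map order, Tas1r genes at the top, and 1 column per source. Colour gives the list with the largest share of the gene body. The 24 genes from Tas2r130 to Tas2r140 are LAD in every column, and the changes of colour sit in Tas1r3, in Tas2r119, and in Tas2r137, Tas2r108, Tas2r143 and Tas2r135 of the smaller clusters.

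Few bitter receptors differed in state between sources. Of the 30 listed in all 3 maps, 29 had 1 state throughout, beside 71.7% of all genes so listed (60.4% of all genes, listed or not). Of the 30 Tas2r genes listed in both maps, 1 differed between forebrain and mES cells, beside 22.6% of all such genes, and 1 differed between heart and mES cells, beside 19.6%. None of 30 differed between forebrain and heart, beside 15.2%. No taste receptor gene was LAD in forebrain and another state in heart, beside 1.65% of all genes listed in both, or open in forebrain and KOD in heart, beside 5.48%. The gene that differed from mES cells was Tas2r119 in both comparisons. Of the 30 genes listed in all 3 maps, 24 belong to the largest cluster. Without that cluster 6 were listed in all 3 maps, and 5 of these had 1 state throughout. Of those 6, 1 differed between forebrain and mES cells, 1 between heart and mES cells and 0 between forebrain and heart. The low count of differences thus rests mostly on 1 cluster. Keeping a LAD is common among all genes: of those LAD in mES cells and listed in the tissue, 88.1% were LAD in forebrain and 85.2% in heart, and 29 of 29 Tas2r genes were in each tissue. The 29 lie in 6 LADs of mES cells. When a stretch in no list was counted as a state, a choice made after the data were seen, 3 Tas2r genes differed between forebrain and mES cells, 3 between heart and mES cells and 4 between forebrain and heart.

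The largest cluster was a single block of LAD in forebrain and in mES cells. In forebrain 1 LAD of 2590 kb, from 131400001 to 133990000, held all 24 receptor genes and 13 other protein-coding genes. In mES cells 1 LAD of 2420 kb, from 131430001 to 133850000, held the 24 and 12 others. Of the 2085 LADs of forebrain 100 were longer, and of the 1932 of mES cells 101 were. The receptor genes lay 230 to 1290 kb from the nearer end of that LAD in forebrain and 200 to 1190 kb in mES cells. Tas2r105, a receptor for cycloheximide in mice, lay 287 kb from the end in forebrain and 257 kb in mES cells, and Tas2r140 lay 934 and 794 kb from it.

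In heart the same 24 genes were LAD, but in 2 separate blocks. A LAD of 350 kb (131600001 to 131950000) held the first 6 genes, Tas2r130, Tas2r107, Tas2r106, Tas2r104, Tas2r105 and Tas2r114, and a LAD of 1230 kb (132550001 to 133780000) held the other 18, which are in map order Tas2r120, Tas2r121, Tas2r122, Tas2r115, Tas2r124, Tas2r102, Tas2r136, Tas2r117, Tas2r123, Tas2r116, Tas2r110, Tas2r113, Tas2r125, Tas2r129, Tas2r131, Tas2r109, Tas2r103 and Tas2r140. The stretch between them held no receptor gene and consisted of pieces of 220, 160 and 110 kb in no list, parted by LADs of 10 and 100 kb. LADs covered 65.6% of the cluster in heart, against 100% in forebrain and 100% in mES cells, and the other 34.4% was in no list. No bin of the cluster was KOD or open in any source. The receptor genes lay 29.9 to 505 kb from the nearer end of their LAD in heart.

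Other genes stand in the stretch between the groups of 6 and 18 receptor genes. Between Tas2r114 and Tas2r120 stand 7 other protein-coding genes, among them Prb1, Prpmp5, Prh1 and Prp2 of the proline-rich proteins of saliva. All 7 were LAD in forebrain and in mES cells. In heart Gm4736, Prb1 and Prpmp5 were in no list and Gm8882, Prh1, Prp2 and A630073D07Rik were LAD. Genes in no list made up 7.21% of all protein-coding genes for forebrain, 9.99% for heart and 7.05% for mES cells.

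**Figure D3:**
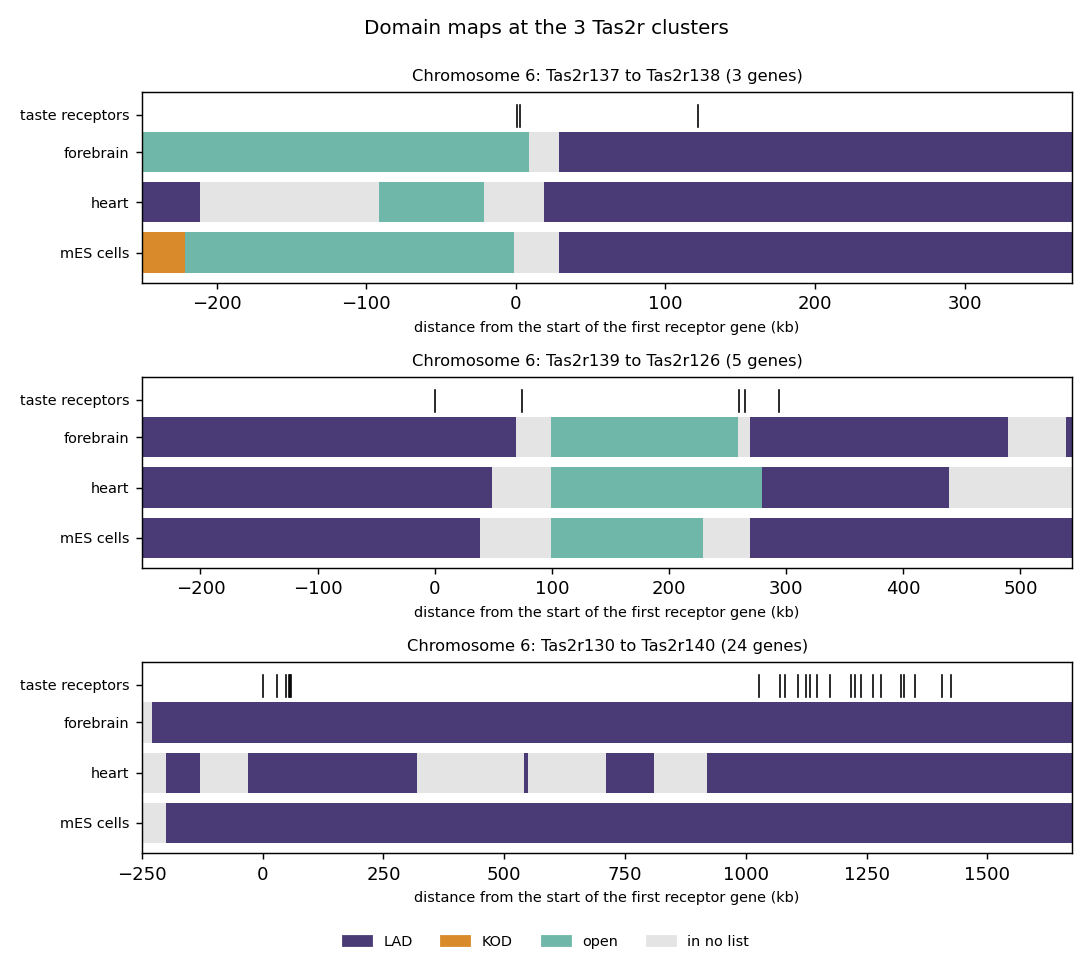
Domain maps at the 3 Tas2r clusters of chromosome 6. The x axis is the distance in kb from the start of the first receptor gene, short black lines mark the receptor genes, and the bars below them show the state in forebrain, heart and mES cells. In the lowest panel the LAD is unbroken in forebrain and mES cells and parted in heart between the groups of 6 and 18 genes. In the other panels the clusters lie across LAD ends. Some of their receptor genes are inside LADs and others are open or in no list.

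The 2 smaller clusters lay across the ends of LADs. In the cluster of 3, Tas2r137 and Tas2r108 stand side by side, and Tas2r138, the counterpart of the human receptor for phenylthiocarbamide, stands farther on. Tas2r138 was LAD in every source, in LADs of 1040 kb in the forebrain, 570 kb in the heart and 540 kb in mES cells. Tas2r137 and Tas2r108 were open in forebrain, where the open domain of 410 kb ended 7.76 and 5.51 kb past them. They were in no list in heart and in mES cells. The open domain of mES cells ended at 40490000, just before Tas2r137, and that of heart at 40470000. The LAD began 27.8 and 25.5 kb from these genes in forebrain, 17.8 and 15.5 kb in heart, and 27.8 and 25.5 kb in mES cells.

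In the cluster of 5, the outer genes Tas2r139 and Tas2r126 were LAD in every source and the inner ones were not LAD in any. Tas2r139 lay in LADs of 570, 540 and 550 kb in forebrain, heart and mES cells, and Tas2r126 in LADs of 220, 160 and 830 kb. Between them lay an open domain and 7 other genes, among them Clcn1, the chloride channel of skeletal muscle, Casp2, Zyx and Epha1, all open in the 3 sources. Tas2r143 and Tas2r135 were open in heart, where this domain ran from 42240001 to 42420000. In forebrain it ended at 42400000, 0.237 kb before Tas2r143, and in mES cells at 42370000, and both genes were in no list there. Tas2r144 was in no list of any source, beside 2.21% of all genes. It lay 5.33, 25.3 and 35.3 kb from the nearest LAD of forebrain, heart and mES cells. A bin is 10 kb and the ends of domains are known no better, so these shifts are of 1 to 5 bins. With 20 kb trimmed from each domain end, Tas2r137 and Tas2r108 in forebrain, and Tas2r143, Tas2r135 and Tas2r126 in heart, were in no list.

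Tas2r119, on chromosome 15, was the only Tas2r gene listed in every source that changed state. It was wholly LAD in forebrain and heart and wholly KOD in mES cells. The KOD of mES cells was 310 kb long, 31910001 to 32220000, and the gene lay 41.7 kb from its nearer end. The LADs were short, 50 kb in forebrain and 120 kb in heart, and the gene lay 1.71 and 11.7 kb from their ends. With 20 kb trimmed from each domain end Tas2r119 was in no list in either tissue, and with domains under 100 kb left out it was in none in forebrain. Within 500 kb to each side LADs covered 45.1% of bases in forebrain and 66.0% in heart, against 4.0% in mES cells. Among all genes listed in both maps, 1.39% were LAD in forebrain but not in mES cells, and 1.89% were LAD in heart but not in mES cells.

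The other single bitter receptors were LAD everywhere. Tas2r118, on chromosome 6 at 23969161 to 23970060, lay in LADs of 970 kb in the forebrain, 610 kb in the heart and 610 kb in mES cells. Tas2r134, on chromosome 2 at 51627511 to 51628407, lay in shorter LADs, of 120 kb in the forebrain, 50 kb in the heart and 120 kb in mES cells. In heart it was in no list once domains under 100 kb were left out.

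Over the family the LADs that held Tas2r genes had a median length, counted per gene, of 2590 kb in the forebrain, 1230 kb in the heart and 2420 kb in mES cells. For the other LAD genes it was 1120, 570 and 990 kb. The median distance from a Tas2r gene to the nearer end of its LAD was 1020 kb in the forebrain, 174 kb in the heart and 892 kb in mES cells, beside 164, 76.9 and 146 kb for the other LAD genes. The largest cluster sets these medians. All LADs of heart were shorter as a group, with a median of 90 kb, against 120 kb in forebrain and 160 kb in mES cells.

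**Figure D4:**
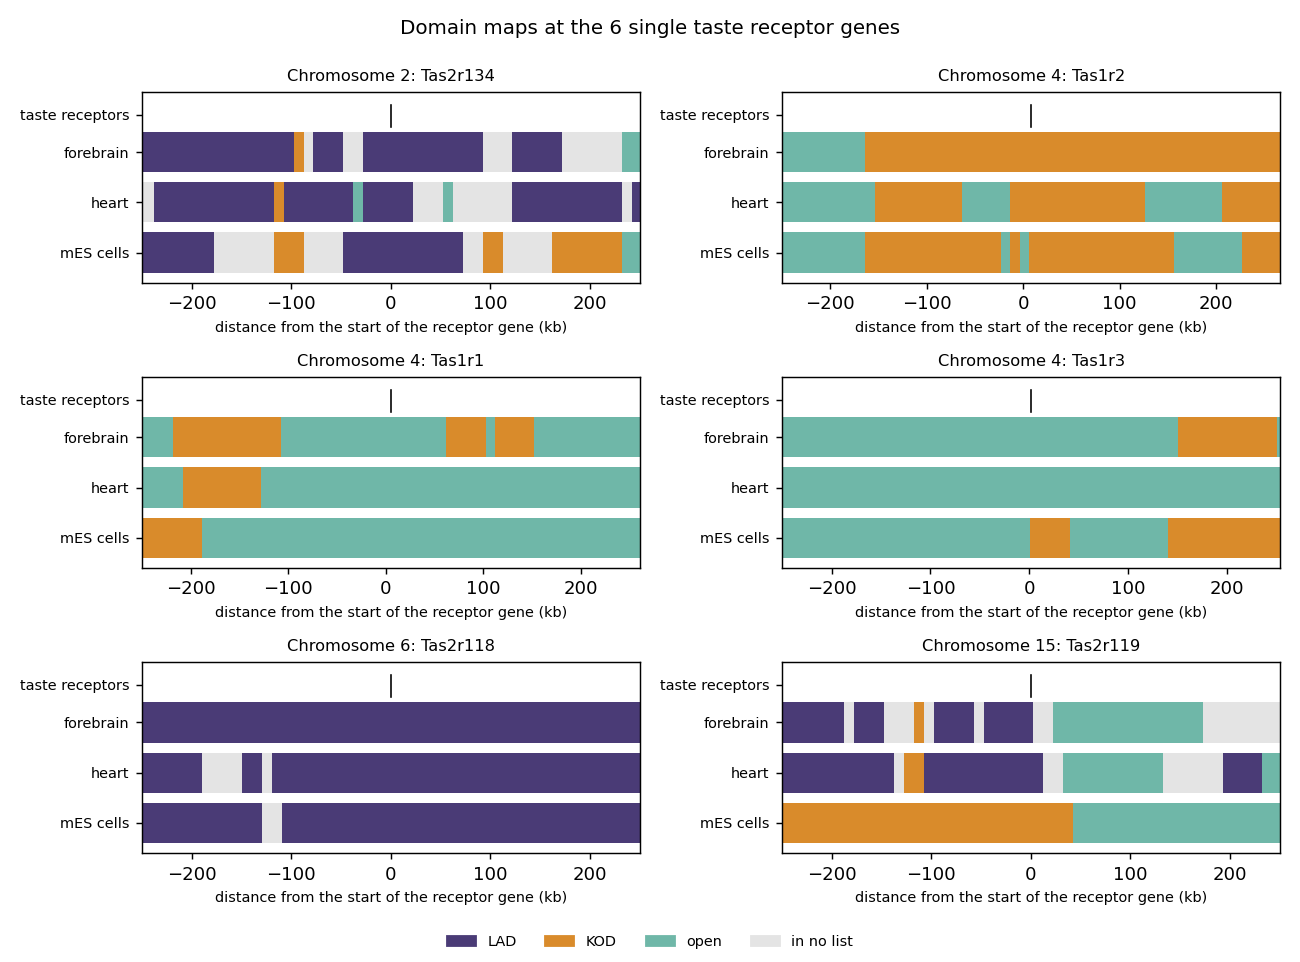
Domain maps within 250 kb of the 6 single taste receptor genes. The x axis is the distance in kb from the start of the gene, the short black line is the gene, and the bars show the state in forebrain, heart and mES cells. Tas2r119 sits in LAD in both tissues and in KOD in mES cells, Tas1r3 sits at the start of a KOD of 40 kb in mES cells, and Tas2r118 sits in LAD in every source.

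Among the Tas1r genes, Tas1r1, the umami subunit (chromosome 4, 152027914 to 152038490), was wholly open in every source, in open domains of 170 kb in the forebrain, 650 kb in the heart and 520 kb in mES cells. Its neighbours on both sides, Zbtb48 and Nol9, were open in every source too. Tas1r3, the subunit shared by both receptors (155859268 to 155863353), was wholly open in forebrain and heart, in domains of 490 and 780 kb that held 24 and 38 other genes. In mES cells 82.1% of it was KOD and 17.9% open, in a KOD of 40 kb that also took in Cptp, Ints11 and Pusl1, which were open in both tissues. That KOD is short, and Tas1r3 was in no list of mES cells when domains under 100 kb were left out or 20 kb was trimmed. Among all genes listed in both maps, 6.10% were open in forebrain but KOD in mES cells, and 4.45% were open in heart but KOD in mES cells.

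Tas1r2, the sweet subunit (139653538 to 139670280), was KOD in every source. It was wholly KOD in forebrain, in a domain of 1040 kb, and in heart, in a domain of 140 kb. In mES cells KOD covered 61.4% of it and open 38.6%, its annotated start lay in the open bin, and with 20 kb trimmed it was in no list. Pax7, a transcription factor of muscle and neural progenitors and the next gene along, was KOD in forebrain, open in heart and KOD in mES cells, and so was Aldh4a1 on the other side. The 3 Tas1r genes thus had 3 different sets of states across the sources.

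The nearest genes around the loci were also described. Of the 18 nearest neighbours of Tas1r genes, 3 on each side of each, 0 were LAD in any source, and 7, 3 and 8 were KOD in forebrain, heart and mES cells. Of the 36 nearest neighbours of the Tas2r loci, 21 were LAD in the forebrain, 20 in the heart and 20 in mES cells. Among these 36, 0 were KOD in any source, and 13, 8 and 13 were open. Of all protein-coding genes, 16.5%, 14.2% and 16.5% were LAD in forebrain, heart and mES cells. The all-gene shares were 18.9%, 17.8% and 12.9% for KOD and 57.4%, 58.0% and 63.6% for open. Not every locus had LAD neighbours: of the 6 around Tas2r134, itself LAD in every source, 0 were LAD in the forebrain, 0 in the heart and 1 in mES cells. Mgam, an intestinal maltase beside Tas2r138, and the olfactory receptor gene Olfr458 beside Tas2r126 were LAD in every source, as were Cadps2 and Slc13a1 around Tas2r118, Sva beside Tas2r139 and Smim10l1 beside Tas2r140. Rnd3, 478 kb from Tas2r134, Mxra8, 15.2 kb from Tas1r3, and Atpsckmt, 560 kb from Tas2r119, were open in every source. In heart Rbm43, 296 kb from Tas2r134, Ssbp1 beside Tas2r137 and 5430401F13Rik beside Tas2r130 were in no list. In both other maps Rbm43 and Ssbp1 were open and 5430401F13Rik was LAD. Sema5a, an axon guidance gene 66.5 kb from Tas2r119, was open in forebrain and in mES cells. In heart the largest share of its body was LAD, but its end nearer Tas2r119 lay in an open domain of 100 kb.

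Genes that act with the receptors, or in the same cells, were counted in 3 lists. Of 13 genes of taste transduction 12 matched the annotation, and 2 of them were LAD in the forebrain, 1 in the heart and 2 in mES cells, beside 16.5%, 14.2% and 16.5% of all genes. Gnat3, the G protein subunit gustducin, was LAD in every source, over 100% of its body in the forebrain, 82.5% in the heart and 65.6% in mES cells. Gnb3 was open and Gng13 KOD in every source, both subunits of the same G protein. In the list, 9 of 12 had 1 state throughout, beside 60.4% of all genes and 71.7% of those listed in all 3 maps. Trpm5, the cation channel that depolarises sweet, bitter and umami cells, was KOD over 63.3% of its body in forebrain and wholly open in heart and in mES cells.

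Of 12 genes of sour, salt and fat taste 2 were LAD in each source, near the 16.5%, 14.2% and 16.5% of all genes, and 6 had 1 state throughout, beside 60.4% of all genes. Otop1, the proton channel of sour cells, was open in every source. Pkd2l1, a marker of those cells, was KOD in every source, over 87.7% of its body in mES cells. Pkd1l3 was KOD in forebrain, open over 65.8% of its body in heart and wholly open in mES cells. Car4, a carbonic anhydrase, was KOD in both tissues and open in mES cells. Scnn1g, a subunit of the epithelial sodium channel, was wholly KOD in forebrain. It was LAD over 83.6% of its body in heart and KOD over 83.6% in mES cells. Ffar4, a fatty acid receptor, was wholly open in forebrain, open over 75.2% of its body in heart and KOD over 83.0% in mES cells. Grm4, a glutamate receptor, was open in forebrain, KOD over 52.1% of its body in heart and open in mES cells.

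Of 14 transcription factors and signals of taste cells, 1 was LAD in the forebrain, 1 in the heart and 0 in mES cells, beside the same 16.5%, 14.2% and 16.5%, and 9 had 1 state throughout, beside 60.4% of all genes. Pou2f3, needed for sweet, umami and bitter cells, was KOD in every source, over 80.4% of its body in mES cells. Sox2 was open in every source. Eya1 was LAD over 78.9% of its body in forebrain and 57.0% in heart and wholly open in mES cells. Prox1 was open in both tissues and KOD in mES cells, and Krt8, a keratin of taste cells, was KOD in both tissues and open in mES cells.

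Tas2r genes were also set beside other chemosensory families. The share of Tas2r genes in LADs was 85.7% in the forebrain, 85.7% in the heart and 82.9% in mES cells. For the 11 outside the largest cluster it was 54.5%, 54.5% and 45.5%. Of 1104 Olfr genes, 83.2%, 83.2% and 84.7% were LAD. For 230 Vmn1r genes the shares were 46.1%, 47.4% and 84.8%, and for 122 Vmn2r genes 63.9%, 56.6% and 91.0%. Open Vmn1r genes made up 39.1% in forebrain and 31.3% in heart, against 3.48% in mES cells. No test was made between families, since neighbouring genes share domains and each source has a single map.

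**Figure D5:**
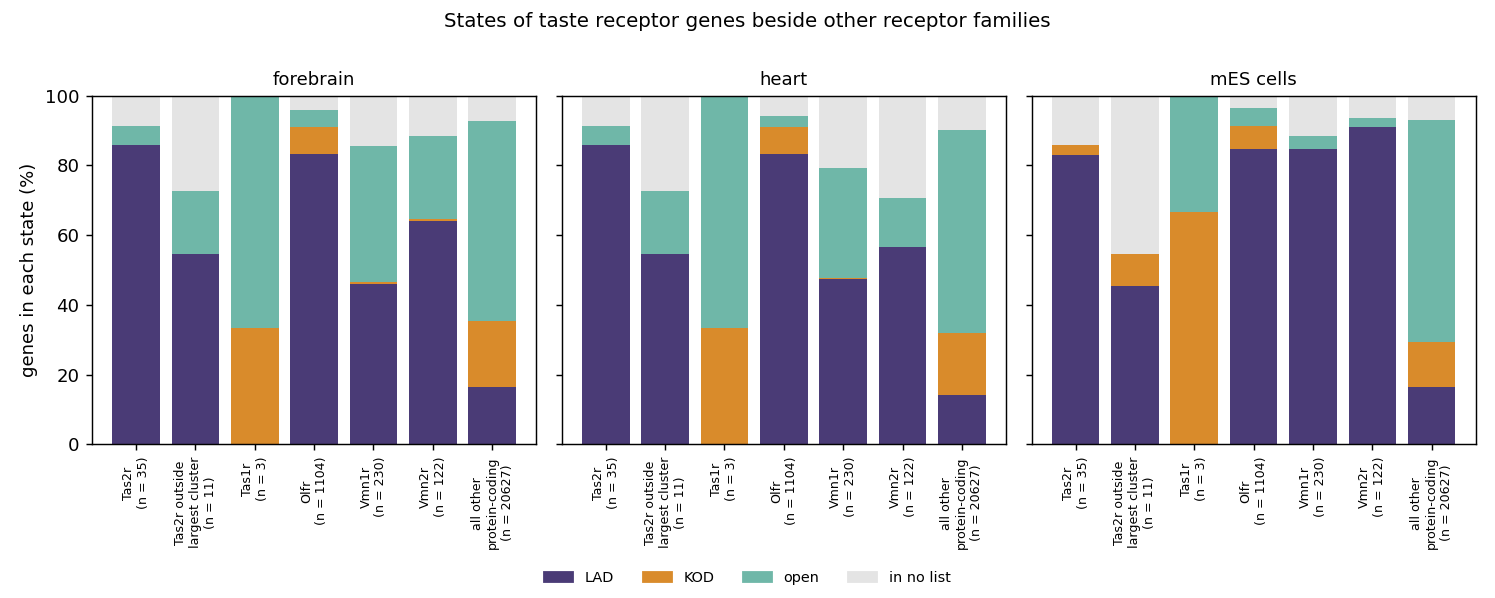
Share of genes (y axis, %) in each state in forebrain, heart and mES cells for the Tas2r genes, the Tas2r genes outside the largest cluster, the Tas1r genes, 3 other chemosensory receptor families and all other protein-coding genes, with the number of genes under each bar. LAD makes up over 80% of the Tas2r and Olfr bars in every panel and 0% of the Tas1r bars. For Tas2r genes outside the largest cluster it makes up 54.5%, 54.5% and 45.5% in forebrain, heart and mES cells.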

How the data were processed

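Per the labels' protocols, cells were dissociated, bound to beads and treated with antibody and pAG-MNase with a CUT&RUN kit. Tools named, per the submitters' processing notes, are Bowtie2 2.5.0, cutadapt 4.2, deepTools, Picard and Trim Galore, and the build is mm10. The caller, the thresholds and the use of IgG behind the domains are not given in the sources used here. The deposited lists hold starts and ends with no score, 1 set per source for all its libraries, so depth and replicate spread are unknown.

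Lists were painted in bins of 10 kb on chromosomes 1 to 19 (2401 Mb) with Python 3.11.15, numpy 2.4.6 and pandas 2.3.3. Painting and gene states were checked on simulated data. Genes came from RefSeq GRCm38.p6, the assembly behind mm10. Start windows were aligned with Biopython 1.88, and figures drawn with matplotlib 3.10.9. No test was run. The text names every member, genes of the 3 pathway lists that differ between sources and the first 3 of each list (1 list gene is not reported here), and the nearest neighbour on each side of a locus. The members, lists and alternatives were chosen with earlier results of these data known. Clcn1, Casp2, Zyx, Epha1 and the salivary genes inside the clusters, and Cptp, Ints11 and Pusl1, were named after their values were seen.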

Additional observations from a re-analysis of the deposited data

How the results depend on the processing

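Each source has 1 map, so no replicate could be left out. No paired analysis was possible because the lists carry no replicates. The alternative that needs protein identity was not run. The counts of Tas2r genes in LADs were 28 to 32 under the settings that keep the whole family, except that 26, 26 and 25 were LAD at the annotated start, since 4 genes have none. Using the gene midpoint, or only states over 50% of the body, changed none of the 10 counts. Without chromosome 6, where 2 Tas2r genes are left, 2 were LAD in the forebrain, 2 in the heart and 1 in mES cells, and 1 had 1 state throughout. Without the largest cluster, added after the data were seen, 6, 6 and 5 of 11 were LAD and 5 had 1 state throughout. With 50 kb on each side of the gene, 2 Tas2r genes differed between forebrain and mES cells (Tas2r119 and Tas2r143). Between heart and mES cells 3 differed (the same 2 and Tas2r135), and between forebrain and heart 1 did (Tas2r135). In that setting 2 Tas1r genes were open in mES cells, Tas1r1 and Tas1r3. At the annotated start 2 were also open there, but these were Tas1r1 and Tas1r2. With 20 kb trimmed from each domain end the number that differed was 0 between forebrain and mES cells and 0 between heart and mES cells, since Tas2r119 then had no state in the tissues. With domains under 100 kb left out it was 0 between forebrain and mES cells. With no list counted as a state, also added later, it was 3, 3 and 4.

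LADs covered 87.6% of the bases of the 3 Tas2r clusters in the forebrain, 59.9% in the heart and 86.0% in mES cells. The shares were 73.9%, 71.6% and 70.4% where clusters end at gaps of 500 kb, which parts the largest cluster at the stretch missing from the heart LAD, 90.8%, 71.8% and 84.3% with gaps of 2 Mb, and 84.3%, 52.0% and 82.7% with 20 kb trimmed. The heart share was the lowest of the 3 in the settings that count that stretch within a cluster, and not with gaps of 500 kb.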

Other observations

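The 5 taste receptor pseudogenes of the annotation, Tas2r145-ps3, Tas2r111-ps2, Tas2r142-ps5, Tas2r146-ps1 and Tas2r141-ps4, stand in or just past the largest cluster on chromosome 6 and were LAD in every source, like the coding genes around them.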
